A study of Mus musculus with 4 samples.

Results

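Interleukins and their receptor chains were examined in mouse lung as the rows whose gene symbol begins with Il followed by a number and whose normalized read count averaged at least 4 over the 4 libraries. Of the 83 rows with such a symbol, 45 met this filter, against 15164 of all 23282 rows. The 45 genes comprised 14 ligands, 27 receptor chains and 4 soluble inhibitors or decoy receptors (Il1rn, Il1r2, Il18bp and Il22ra2). Of the rows outside, 18 had no read in any library, among them Il4, Il13, Il17a and Il22, and 20 had a few reads. The lowest mean inside the filter was 4.25 and the highest outside was 2.90 (Il27ra). Reads exceeded 3 in all libraries for 37 of the 45 genes. Il6, Il10 and Il12a passed only through their highest library, since their mean without it was under 4.

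The RNA came from lungs of male CDF1 mice, in 4 groups that crossed exercise (E) with tumor (T). The normal control E(-)T(-) had neither, the normal exercise group E(+)T(-) ran on a motorized treadmill at high intensity, the cancer control E(-)T(+) had CT26 cells injected into the tail vein, and the cancer exercise group E(+)T(+) had both. The labels give 10 mice per group and postnatal day 28, which may be the age at purchase and not at sampling. Whether a lung library came from 1 mouse or a pool is not stated, while for muscle the paper names a representative mouse of each group. Since 1 library was sequenced per group, no difference here has a replicate check. CT26 is a mouse colorectal carcinoma line, and its reads cannot be told apart from those of the host lung.

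Interleukins are secreted signaling proteins with which leukocytes, epithelium, endothelium and fibroblasts address one another, and they act through receptors assembled from a private chain and a chain shared within a family. Members of the IL-1 family, such as IL-1 and IL-33, are held in check by a receptor antagonist, by a decoy receptor that binds ligand without signaling and by soluble binding proteins. The common gamma chain family, to which IL-7 and IL-15 belong, maintains lymphocytes, and the lung epithelium is a known store of IL-18 and IL-33.

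Libraries held 9354541 to 13367987 reads over all rows. Values are normalized read counts, that is reads scaled to a common library size, and 3 reads, the floor taken for detection, correspond to 2.55 in the normal control E(-)T(-), 2.76 in the normal exercise library E(+)T(-), 3.29 in the cancer control E(-)T(+) and 3.51 in the cancer exercise library E(+)T(+). All series of 4 values follow this order. A gene is said to have risen or fallen where the difference of log2(normalized count + 1) reached 2-fold, the limit the study used, and bracketed intervals are 95% exact (Clopper-Pearson) intervals of the ratio of reads on the log2 scale, which cover counting error only. Hemoglobin genes took 14.3%, 14.2%, 1.43% and 31.4% of the reads. All 10 alveolar epithelium markers had reads in every library, with summed normalized counts of 229437, 278384, 33672 and 187232. In bulk tissue, fewer cells of a type and less RNA per cell cannot be told apart. Of 9 genes at 0 reads in E(-)T(-) whose normalized count in E(-)T(+) was 500 or more, 9 had reads in E(+)T(-), at a median of 1.47% of the level in the resting tumor library. The shares ran from 0.642% to 2.18%, and only the median was subtracted from E(+)T(-). That moved no interleukin or receptor gene across the limit, and larger shares were not tried.

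With exercise in tumor-free mice 8 of the 45 genes rose and 3 fell, so that 11 had passed the 2-fold limit, against 9.98% of all filtered rows (5.28% higher and 4.70% lower). With a pseudocount of 4, 7 were higher and 1 lower past the limit, against 6.66% of rows. At a mean count of at least 20, 5 of 34 genes had passed it, all higher, against 4.88% of rows. With tumor in resting mice 13 rose and 19 fell, or 32 in all, against 46.2% of rows (20.6% higher and 25.7% lower). With a pseudocount of 4 the split was 8 higher and 19 lower, against 43.2% of rows. It was also 8 and 19 where the counting interval had to exclude equality, against 43.7%. With exercise in tumor-bearing mice 24 rose and 6 fell, or 30 in all, against 42.0% of rows (24.3% higher and 17.7% lower). Il6, Il10 and Il12a are among the 24, a rise that the filter favors, and without them 21 of 42 rose. When reads were scaled by library totals alone, which put the median of all rows at -0.59, this last split became 13 higher and 8 lower, or 21 in all, against 51.8% of rows under that scaling, so that the share of the 45 genes was no longer above that of all rows. With tumor in exercised mice 13 rose and 8 fell, or 21 in all, against 27.8% of rows (14.9% higher and 13% lower), and the split under totals alone was 9 higher and 15 lower, against 33.7% of rows. Requiring also that the counting interval exclude equality left 10, 27, 29 and 20 genes in these 4 comparisons, against 7%, 43.7%, 38.7% and 24.9% of rows. A difference of 0 against 1 read placed Il10 and Il12a among the 32 genes, and 0 against 2 reads placed Il6 among the 11.

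**Figure D1:**
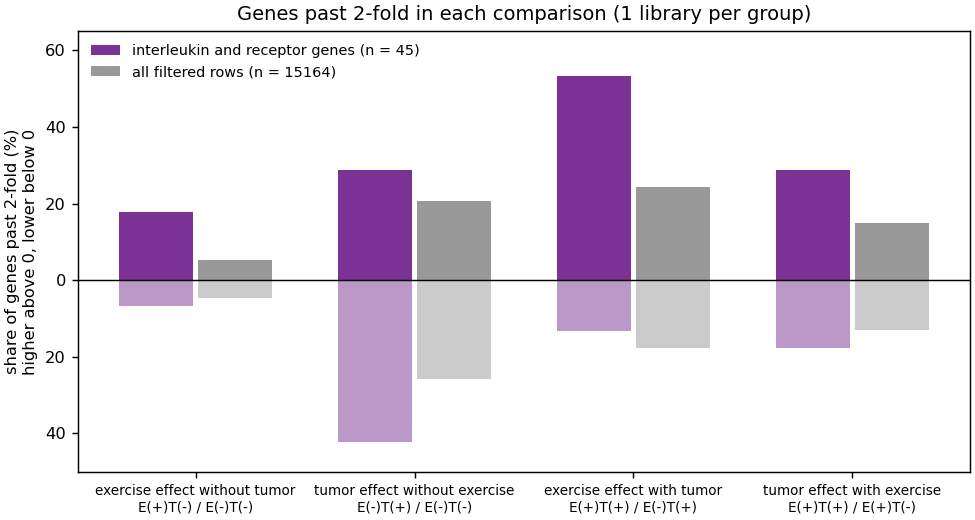
Share of genes past the 2-fold limit in each comparison, in percent, for the 45 interleukin and receptor genes (purple) and all 15164 filtered rows (grey), with higher genes drawn above 0 and lower genes below 0 in a paler tone. The tallest purple bar is the 24 genes that rose with exercise in tumor-bearing mice, and there is 1 library per group and no error bar.

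The median log2 difference of the 45 genes was 0.10, -0.74, 1.16 and 0.38 in the comparisons exercise without tumor, tumor without exercise, exercise with tumor and tumor with exercise, and that of all filtered rows was 0.00, -0.03, 0.01 and 0.00. Setting members without a read at the floor of 3 reads left these medians the same to the 2nd decimal. E(-)T(+) was the lowest library for 24 of the 45 genes, against 36.9% of rows, and the highest for 8, against 35.5%. E(+)T(+) was the highest for 16, against 22.3%, although Il6, Il10 and Il12a are among them by the filter itself, and without them it was the highest for 13 of 42. Both tumor libraries lay above both tumor-free libraries for 14 genes, against 26.7% of rows, and below them for 14, against 28.2%. Both exercise libraries lay above both resting libraries for 7 genes (11.3% of rows) and below for 0 (12% of rows). Il6 and Il10 are among the 14 genes above with tumor and Il12a among these 7. The filter favors this, since they passed it only through E(+)T(+). A range of 8-fold or more over the libraries was seen for 14 genes, against 15.9% of rows, and for 11 of 42 without Il6, Il10 and Il12a.

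**Figure D2:**
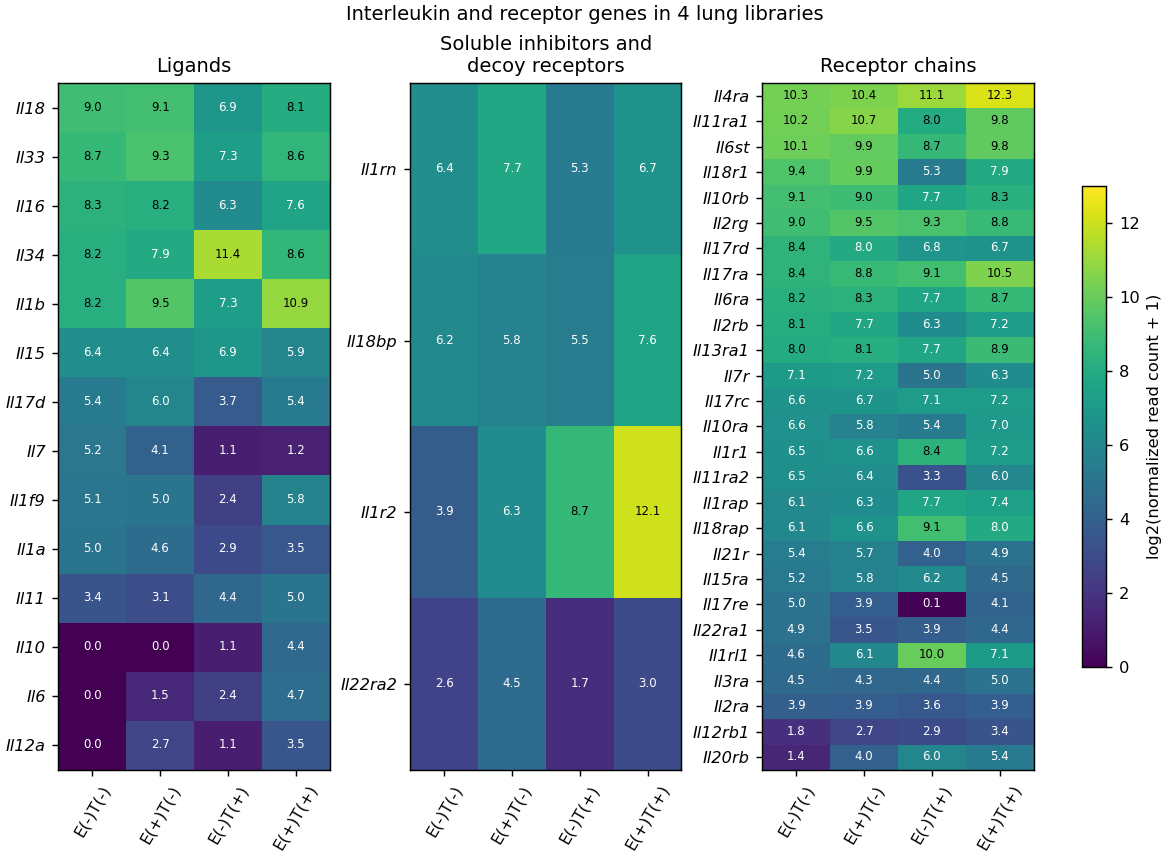
Deposited values, log2(normalized read count + 1), of the 45 genes in the 4 libraries, in panels for ligands, soluble inhibitors or decoys and receptor chains, each ordered by the level in E(-)T(-). The number in a cell is its value, and Il1r2 runs from 3.9 to 12.1 across the libraries.

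The decoy receptor of IL-1 had the widest range of all 45 genes. Il1r2, which binds IL-1 without passing on a signal, had 13.5, 77.1, 407 and 4296 normalized counts (16, 84, 371 and 3675 reads). It rose in each of the 4 comparisons, and every interval excluded equality. Exercise was accompanied by a 5.39-fold higher level without tumor (log2 2.43, interval 1.72 to 3.38) and a 10.5-fold higher one with tumor (log2 3.40, 3.25 to 3.56). Tumor was accompanied by a 28.1-fold higher level at rest (log2 4.81, 4.18 to 5.72) and a 55.0-fold higher one with exercise (log2 5.78, 5.49 to 6.13). The signaling receptor Il1r1 took another course, with 90.8, 96.4, 334 and 144. It rose with tumor at rest (log2 1.87, 1.56 to 2.21) and was lower in E(+)T(+) than in E(-)T(+) (log2 -1.21, -1.53 to -0.91). Reads of Il1r2 per read of Il1r1, a ratio that can be compared between libraries but is not one of molecules, were 0.150 (95% exact interval 0.0825 to 0.254), 0.8 (0.593 to 1.08), 1.22 (1.04 to 1.42) and 29.9 (25 to 36.1).

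IL-1 itself divided by form. Il1b, the secreted form that leukocytes make as a precursor, had 285, 723, 152 and 1937 normalized counts. It was higher with exercise in both settings, by 2.53-fold without tumor (log2 1.34, 1.15 to 1.53) and by 12.6-fold with tumor (log2 3.66, 3.42 to 3.93). The tumor difference ran to opposite sides at rest and in exercised mice, at log2 -0.90 (-1.20 to -0.62), short of the limit, and 1.42 (1.30 to 1.55). Il1a, the form that many epithelial cells hold, had 30.7, 23.0, 6.64 and 10.6, low in both tumor libraries, with a log2 tumor difference of -2.05 (-3.76 to -0.96) at rest and of -1.05 (-2.41 to 0.02) with exercise. Its exons overlap a noncoding transcript, Gm14023.

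Il1rn, the receptor antagonist, had 85.8, 212, 38.4 and 101. With exercise it rose in both settings, at log2 1.30 (0.96 to 1.66) and 1.36 (0.81 to 2.0), the latter 0.77 with totals alone, and with tumor it fell in both, at -1.14 (-1.76 to -0.59) and -1.07 (-1.45 to -0.71). The ratio of ligand to antagonist had overlapping intervals in 3 libraries and was higher in E(+)T(+). Reads of Il1b per read of Il1rn were 3.33 (2.66 to 4.20), 3.41 (2.94 to 3.96), 3.97 (2.72 to 5.93) and 19.3 (15.5 to 24.2). The co-receptor Il1rap, shared by IL-1, IL-33 and IL-36, had 67.9, 79.9, 203 and 166 and rose with tumor at rest (log2 1.56, 1.19 to 1.97) and with exercise (1.04, 0.66 to 1.46), the latter short of the limit with totals without hemoglobin genes (0.96) and with totals alone (0.64). Il1f9, the older symbol of IL-36 gamma, had 33.1, 31.2, 4.46 and 56.0, with its low point in E(-)T(+), where 4 reads were found.

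The 12 of 13 listed neutrophil genes found in the files summed to 4109, 12507, 12026 and 210682 normalized counts. With exercise alone 8 of the 12 were at least 2-fold higher and 0 lower, and Il1r2, Il1b and Il1rn rose too. With tumor at rest 10 were higher and 0 lower and Il1r2 was higher, whereas Il1b was lower there and Il1rn fell. With tumor in exercised mice all 12 were higher, as were Il1r2 and Il1b, whereas Il1rn fell. From E(-)T(+) to E(+)T(+) 11 of the 12 were at least 2-fold higher, and 1 (Ltf) lower. Elane, a granule protease, was at 0 reads in both tumor-free libraries. Macrophage and monocyte markers (9 of 10 found, none at 0 reads) summed to 3535, 3689, 12563 and 11288. With tumor at rest 4 of these were at least 2-fold higher and 0 lower, and with exercise in tumor-bearing mice 3 were higher and 3 lower. In this list Ly6c2 had 461, 650, 263 and 2840 and Ccr2 351, 298, 205 and 866. Both were lowest in E(-)T(+) and highest in E(+)T(+), as was Il1b. The part of neutrophils, macrophages and monocytes in the levels of Il1r2, Il1b and Il1rn was not tested.

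Il1r2 and 4 receptor chains lie in a cluster of 6 genes, all on the plus strand, spanning 467.0 kb of chromosome 1 (RefSeq, GRCm38.p6). The order is Il1r2 (chr1:40084692-40125230), Il1r1 (chr1:40222480-40316201), Il1rl2 (chr1:40324589-40367555), Il1rl1 (chr1:40404864-40465418), Il18r1 (chr1:40465552-40500854) and Il18rap (chr1:40515362-40551707). Il1rl2, the receptor of IL-36, had at most 2 reads in any library and was outside the filter. Il18r1 begins 133 bases after the end of Il1rl1, yet these neighbors moved to opposite sides in both tumor comparisons. The promoters of the 5 genes inside the filter are printed, for Il18r1 1 of 3, because they are genes of 1 cluster with different courses. They are the 250 bases before to 50 after start sites in the RefSeq promoter set (GRCm38.p6, plus strand, 5′ to 3′). For Il1r2, Il1r1 and Il1rl1 the gene starts given above lie upstream of these windows and have no window here. Distal and proximal refer to the printed windows of a gene and not to all its starts. Capitals mark matches, on either strand, to STAT (TTCNNNGAA), NF-kappaB (GGG, 2 further bases, then TTTCC), C/EBP (TTGCNNAA) or GATA factor (AGATAA) letters.
Il1r2 chr1:40085843-40086142: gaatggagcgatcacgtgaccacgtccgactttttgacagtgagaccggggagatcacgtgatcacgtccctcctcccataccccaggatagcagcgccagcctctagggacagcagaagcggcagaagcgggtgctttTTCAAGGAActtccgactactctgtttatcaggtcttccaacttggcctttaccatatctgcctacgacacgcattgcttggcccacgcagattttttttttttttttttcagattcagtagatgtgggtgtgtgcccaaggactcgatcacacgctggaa
Il1r1, distal start, chr1:40224830-40225129: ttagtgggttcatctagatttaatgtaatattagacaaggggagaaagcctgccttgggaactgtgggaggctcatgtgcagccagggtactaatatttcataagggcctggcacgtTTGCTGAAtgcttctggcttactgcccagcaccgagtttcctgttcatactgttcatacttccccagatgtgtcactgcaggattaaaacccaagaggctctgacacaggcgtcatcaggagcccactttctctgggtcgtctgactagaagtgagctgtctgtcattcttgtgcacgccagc
Il1r1, proximal start, chr1:40266336-40266635: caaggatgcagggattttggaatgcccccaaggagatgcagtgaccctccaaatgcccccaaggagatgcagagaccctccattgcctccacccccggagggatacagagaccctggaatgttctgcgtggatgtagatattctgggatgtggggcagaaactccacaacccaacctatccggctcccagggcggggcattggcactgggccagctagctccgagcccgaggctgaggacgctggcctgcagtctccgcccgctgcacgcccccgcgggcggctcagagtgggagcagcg
Il1rl1, distal start, chr1:40429320-40429619: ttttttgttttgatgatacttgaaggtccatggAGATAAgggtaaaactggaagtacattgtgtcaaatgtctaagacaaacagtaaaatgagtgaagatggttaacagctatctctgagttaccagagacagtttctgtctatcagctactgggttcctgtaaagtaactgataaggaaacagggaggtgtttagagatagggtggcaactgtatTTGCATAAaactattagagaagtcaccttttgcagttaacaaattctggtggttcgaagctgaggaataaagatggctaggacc
Il1rl1, proximal start, chr1:40439379-40439678: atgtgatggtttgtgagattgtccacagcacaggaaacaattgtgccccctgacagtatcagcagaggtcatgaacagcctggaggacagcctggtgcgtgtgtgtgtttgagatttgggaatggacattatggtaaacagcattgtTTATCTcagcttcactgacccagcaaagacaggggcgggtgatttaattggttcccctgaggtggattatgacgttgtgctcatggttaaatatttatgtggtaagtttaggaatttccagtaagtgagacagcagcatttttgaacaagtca
Il18r1 chr1:40465756-40466055: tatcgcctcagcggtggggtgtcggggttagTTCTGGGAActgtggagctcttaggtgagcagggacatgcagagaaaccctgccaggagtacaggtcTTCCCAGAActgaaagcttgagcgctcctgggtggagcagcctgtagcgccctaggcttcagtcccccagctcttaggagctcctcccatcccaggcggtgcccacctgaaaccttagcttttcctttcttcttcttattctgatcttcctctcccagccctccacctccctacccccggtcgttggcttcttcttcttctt
Il18rap chr1:40515112-40515411: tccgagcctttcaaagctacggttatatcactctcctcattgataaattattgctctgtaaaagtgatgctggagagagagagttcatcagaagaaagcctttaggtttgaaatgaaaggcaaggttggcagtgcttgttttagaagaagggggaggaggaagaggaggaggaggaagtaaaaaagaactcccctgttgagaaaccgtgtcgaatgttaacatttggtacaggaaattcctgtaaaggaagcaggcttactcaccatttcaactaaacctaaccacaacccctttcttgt

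The Il1r2 window held a STAT match 111 bases before the start site. The distal Il1r1 window held a C/EBP match at -133 and the proximal one none of these letters. The distal Il1rl1 window held a GATA match at -217 and a C/EBP match at -34, and the proximal one a GATA match at -103. Il18r1 has 3 start sites in RefSeq, of which the one printed held STAT matches at -219 and -152 and the other 2, not printed, held no match. These letters were not in the Il18rap window. Among 32851 promoters of the same length, 8.30% held the STAT letters, 1.63% the NF-kappaB, 10.8% the C/EBP and 11.2% the GATA letters. Promoters were found for 35 of the 45 genes, 48 in all, of which 10.4%, 12.5%, 18.8% and 12.5% held them. The NF-kappaB letters were present in 6 of the 48, including that of Il6 at -44, and belong to 5 of the 35 genes, since overlapping windows of Il1rn hold the same site. A match describes the sequence and no binding was measured.

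Il1rl1 encodes ST2, the receptor of IL-33, which marks type 2 innate lymphoid cells, mast cells and regulatory T cells. It had 22.8, 66.1, 1005 and 135 normalized counts (27, 72, 917 and 115 reads). The resting tumor library stood 42.2-fold above its control (log2 5.40, 4.90 to 6.06), the largest rise with tumor at rest among the 45 genes. In exercised mice the tumor difference was log2 1.01 (0.59 to 1.47), which was short of the limit with a pseudocount of 4, with totals alone and with totals without hemoglobin genes. The exercise difference changed side, from 1.49 (0.87 to 2.22) without tumor to -2.89 (-3.19 to -2.62) with tumor. After removal of the 1.47% share of E(-)T(+) from E(+)T(-), the first of these was 1.14. Removal of the highest share found, 2.18%, was not tried, so whether that value would stay past the limit is not known. The ligand Il33, an alarmin stored in nuclei of lung structural cells, had 424, 625, 152 and 375 and was lowest where its receptor was highest. Reads of Il1rl1 per read of Il33 were 0.0541 (0.0353 to 0.0797), 0.106 (0.0819 to 0.135), 6.6 (5.51 to 7.94) and 0.358 (0.287 to 0.445). Of the type 2 innate lymphoid cell markers, all 6 had reads in every library, with summed levels of 1453, 1511, 3592 and 1734 that include Il1rl1 itself. Gata3 in that list had 222, 119, 39.5 and 69.1, and mast cell and basophil markers (9 genes) summed to 1748, 1729, 689 and 984, with Mcpt4, Mcpt8 and Ms4a2 at 0 reads in E(-)T(+). Mcpt8 was at 0 in E(-)T(-) as well. In the same list Tpsab1, a mast cell tryptase, had 1, 2, 54 and 20 reads and Tpsb2, another, 14, 25, 19 and 34, and most of the sum was Gata2 (1037, 1230, 557 and 502), followed in E(-)T(-) by Kit (668). Fibroblast markers (7 genes, none at 0) summed to 10092, 9923, 36806 and 14787 and cell division genes (9, of which 1 was at 0 in E(-)T(-)) to 335, 726, 10753 and 3438. The part of these cells in the level of Il1rl1 was not tested.

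IL-18 signals through a ligand-binding chain and an accessory chain, encoded by Il18r1 and Il18rap. Il18r1 had 687, 963, 39.5 and 237 normalized counts (809, 1048, 36 and 203 reads). It fell with tumor at rest (log2 -4.09, -4.65 to -3.64) and with exercise (log2 -2.02, -2.24 to -1.80). Il18rap ran the other way, with 65.3, 97.3, 540 and 248 (77, 106, 493 and 212 reads). Its tumor difference was log2 3.03 (2.7 to 3.41) at rest and 1.34 (1.0 to 1.7) with exercise, the latter 0.93 with totals alone. In E(+)T(+) both chains lay between E(-)T(+) and the tumor-free libraries, and E(+)T(+) over E(-)T(+) gave log2 2.56 (2.07 to 3.14) for Il18r1 and -1.12 (-1.36 to -0.89) for Il18rap. Reads of Il18rap per read of Il18r1 were 0.0952 (0.0743 to 0.120) and 0.101 (0.0820 to 0.124) without tumor, 13.7 (9.76 to 19.8) in E(-)T(+) and 1.04 (0.857 to 1.27) in E(+)T(+).

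Il18, the ligand, had 513, 550, 116 and 267, and fell with tumor both at rest (log2 -2.13, -2.46 to -1.84) and with exercise (-1.04, -1.27 to -0.82). Its soluble inhibitor Il18bp had 73.9, 53.2, 43.9 and 194 and was high in 1 library alone, 4.34-fold above E(-)T(+) (log2 2.12, 1.64 to 2.68) and 3.59-fold above E(+)T(-) (log2 1.84, 1.43 to 2.32). The exons of Il18bp overlap those of Numa1 on the opposite strand, and reads of the genes could not be separated here. Alveolar epithelium markers, given above, and endothelium markers (8 genes, none at 0, summing to 20436, 20772, 2377 and 18078) were low in E(-)T(+) together with Il18 and Il33, and their part in these levels was not tested.

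**Figure D3:**
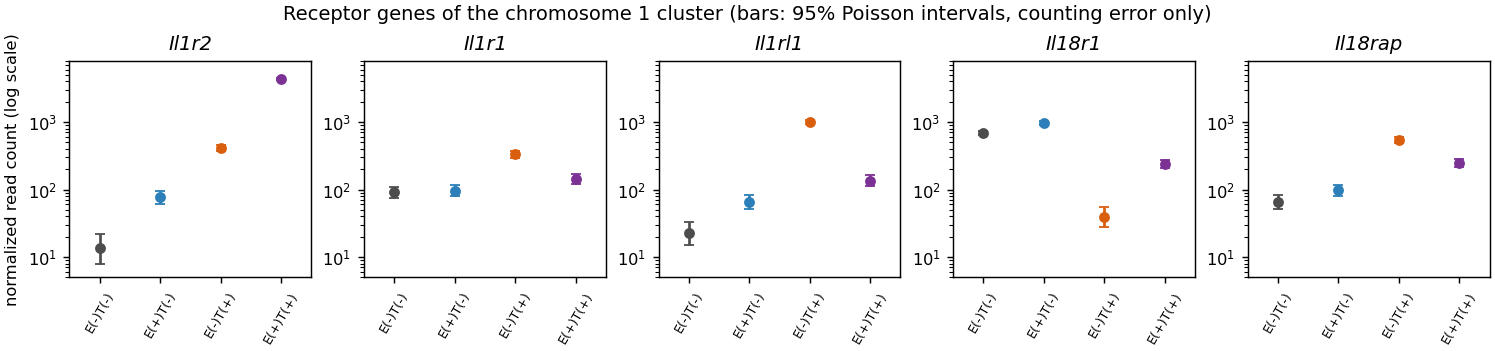
Normalized read counts (log scale) of Il1r2 and the 4 receptor chains of the chromosome 1 cluster in the 4 libraries, in gene order. Points are single libraries and bars are 95% Poisson intervals of the reads, and Il18r1 is lowest in E(-)T(+), the library in which Il1r1, Il1rl1 and Il18rap are highest.

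Across the 13 genes of the IL-1 family, 4 had passed the limit with exercise alone, all higher (Il1r2, Il1rl1, Il1rn and Il1b), against 5.28% of all rows. With tumor at rest 5 had risen and 6 had fallen, against 20.6% and 25.7% of rows. With exercise in tumor-bearing mice 8 had risen and 3 had fallen (24.3% and 17.7% of rows), and with tumor in exercised mice 6 had risen and 4 had fallen (14.9% and 13% of rows). With totals alone 5 had risen and 3 had fallen with exercise in tumor-bearing mice, against 51.8% of rows past the limit on either side. With tumor in exercised mice 3 had risen and 5 had fallen (33.7% of rows), so that the larger side depended on the scaling. With totals without hemoglobin genes the splits were 8 higher and 3 lower (42.8% of rows), and 4 higher and 4 lower (28.7% of rows).

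Il15, the ligand that sustains natural killer cells and memory T cells and that is counted among the cytokines of muscle, differed little without tumor. It had 85.8, 86.4, 118 and 58.5 normalized counts (101, 94, 108 and 50 reads), and lies at chr8:82331624-82403252 on the minus strand. The exercise difference was log2 0.01 (-0.41 to 0.43) without tumor. With tumor it was -1.0 (-1.53 to -0.52), a 2.0-fold fall that lay at the limit itself, and it was -0.97 with a pseudocount of 4. The tumor differences, log2 0.46 (0.06 to 0.87) at rest and -0.55 (-1.09 to -0.05) with exercise, were short of 2-fold. Il15ra, the chain that holds IL-15 on the surface of the presenting cell, was also highest in E(-)T(+) and lowest in E(+)T(+), at 35.6, 53.3, 74.4 and 21.2. It was 3.40-fold lower in E(+)T(+) than in E(-)T(+) (log2 -1.77, -2.66 to -1.06), and 2.45-fold lower than in E(+)T(-) (log2 -1.29, -2.19 to -0.56). At rest, tumor was accompanied by a rise of log2 1.04 (0.49 to 1.65), which was 0.99 with a pseudocount of 4 and 0.95 with totals without hemoglobin genes.

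The chains that receive the signal differed from these. Il2rb, shared by the receptors of IL-2 and IL-15, had 275, 212, 78.9 and 145, and fell with tumor at rest (log2 -1.79, -2.19 to -1.43). Il2rg, the common gamma chain, had 508, 742, 618 and 434 and stayed within 2-fold in all 4 comparisons, with log2 differences of 0.55, 0.28, -0.51 and -0.77. With totals alone the differences of exercise with tumor and tumor with exercise were -1.12 and -1.19, past the limit. Its exons overlap those of the predicted gene Gm20489. Natural killer cell markers (8 genes) summed to 1275, 991, 493 and 333, with Klre1 at 0 reads in both tumor libraries and Klrb1c in E(+)T(+). Most of that sum was Gzma (983, 679, 397 and 287), and Prf1 in the same list went the other way with tumor at rest (1, 7, 15 and 2 reads). T cell markers (11 of 12 found) summed to 824, 745, 153 and 652, with Cd3g at 0 reads in E(-)T(+). Their part in the levels of Il2rb was not tested.

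**Figure D4:**
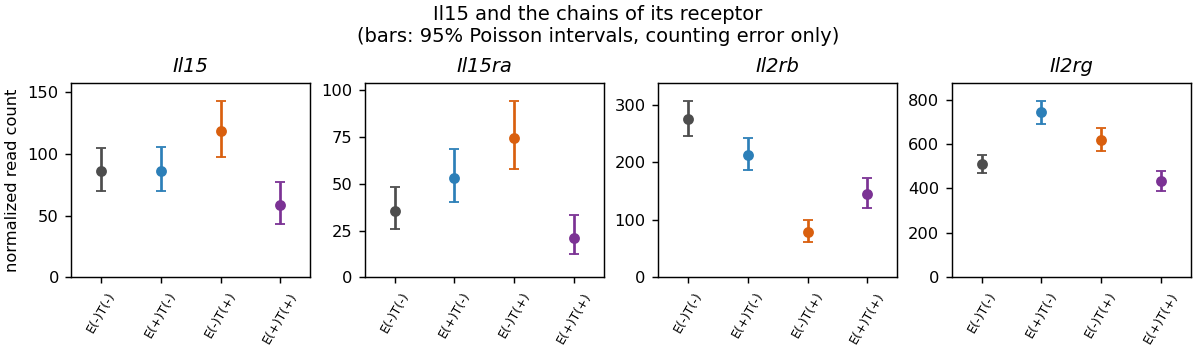
Normalized read counts of Il15 and of the 3 chains of its receptor in the 4 libraries. Points are single libraries and bars are 95% Poisson intervals of the reads. Il15 and Il15ra are highest in E(-)T(+) and lowest in E(+)T(+), whereas Il2rb is lowest in E(-)T(+).

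Il7, made by stromal and epithelial cells and required for lymphocyte survival, was down to 1 read in each tumor library, with 35.1, 15.6, 1.16 and 1.29 normalized counts (41, 17, 1 and 1 reads). Its ratio to the matched tumor-free library was log2 -4.06 (-10.33 to -2.43) at rest and -2.86 (-9.12 to -1.07) with exercise, and with exercise alone it also fell (-1.12, -2.07 to -0.31), though it was just short of the limit with a pseudocount of 4. An antisense transcript overlaps its exons. The receptor Il7r had 136, 147, 30.8 and 79.6, falling with tumor at rest (log2 -2.11, -2.78 to -1.56) and higher in E(+)T(+) than in E(-)T(+) (1.34, 0.72 to 2.06, and 0.75 with totals alone). B cell markers (8 genes) summed to 935, 893, 32.3 and 275, with 5 of the 8 at 0 reads in E(-)T(+), among them Cd79a. The part of lymphocytes in the level of Il7r was not tested. Il4ra, the receptor chain of IL-4 and IL-13, was highest in E(+)T(+), with 1236, 1392, 2141 and 4907. Its exercise difference with tumor was log2 1.20 (1.12 to 1.27), which was 0.59 with totals alone, and its tumor difference with exercise 1.82 (1.73 to 1.90), while both ligands were without a read. Il13ra1 had 258, 270, 204 and 465 and Il21r 42.5, 50.6, 15.4 and 29.3. Il2ra, a marker of activated and regulatory T cells, had between 11 and 14.4 in all libraries.

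In the common gamma family, 10 genes with Il13ra1 counted among them, 0 rose and 1 (Il7) fell with exercise alone. With tumor at rest 1 rose (Il15ra) and 4 fell (Il7, Il7r, Il2rb and Il21r). With exercise in tumor-bearing mice 3 rose (Il7r, Il4ra and Il13ra1) and 2 fell (Il15 and Il15ra), and with tumor in exercised mice 1 rose (Il4ra) and 2 fell (Il7 and Il15ra). With totals alone 0 rose and 3 fell in the former, and 1 rose and 5 fell in the latter. Over all rows 9.98%, 46.2%, 42.0% and 27.8% were past the limit in these comparisons.

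Most of the few reads of Il6 and Il10 were in E(+)T(+). Il6, the ligand that drives the acute phase response, had 0, 1.79, 4.42 and 24.1 normalized counts (0, 2, 4 and 21 reads). It was 4.64-fold higher in E(+)T(+) than in E(-)T(+) (log2 2.21, 0.92 to 4.49), and against E(+)T(-) the log2 difference was 3.17 (1.71 to 6.88). Il10, the anti-inflammatory ligand, had 0, 0, 1.15 and 20.5 (0, 0, 1 and 18 reads), at least 7.45-fold higher in E(+)T(+) than in E(+)T(-) when the latter is set at the floor of 3 reads. Its log2 difference between the tumor libraries was 3.33 (1.6 to 9.64). Il12a, a subunit of IL-12 and IL-35, had 0, 5.53, 1.14 and 10.3 (0, 6, 1 and 9 reads), at least 2.16-fold higher with exercise without tumor. Il11, of the IL-6 family, had 9.27, 7.30, 19.7 and 31.4 and a log2 tumor difference of 1.97 (0.92 to 3.45) with exercise.

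The receptor chains of these ligands had other courses. Il6st (gp130), the signaling chain shared by the IL-6 family, had 1130, 929, 405 and 906, and fell with tumor at rest (log2 -1.48, -1.65 to -1.31). Il6ra had 299, 321, 201 and 418 and rose with exercise in tumor-bearing mice (log2 1.06, 0.80 to 1.33), although it was short of the limit when totals without hemoglobin genes, or totals alone, set the scale. Il11ra1, with 1209, 1606, 259 and 902, and Il11ra2, with 87.6, 82.7, 8.84 and 63.1, are near-identical copies between which reads may be split, and both were lowest in E(-)T(+). Il12rb1 had 2.47, 5.50, 6.57 and 9.28. Il10ra, the ligand-binding chain for IL-10, had 96.1, 53.2, 40.6 and 125, with a tumor difference of log2 -1.22 (-1.82 to -0.70) at rest and 1.22 (0.76 to 1.72) with exercise, the latter 0.81 with totals alone. Il10rb, shared with the IL-22 receptor, had 553, 505, 202 and 305.

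In the IL-22 and IL-20 branch of the IL-10 family the ligands were at or near 0 reads. Il22ra2, the soluble decoy of IL-22, had 5.03, 22.2, 2.25 and 7.07 (6, 24, 2 and 6 reads) and was higher with exercise without tumor (log2 1.94, 0.78 to 3.69). The cell-bound Il22ra1 had 28.1, 10.1, 14.3 and 19.9, lower with exercise without tumor (-1.40, -2.61 to -0.45). Il20rb, a chain of the receptors for IL-19, IL-20 and IL-24, had 1.59, 14.6, 62.3 and 40.8 (2, 16, 57 and 35 reads). With tumor at rest it was 24.5-fold higher (log2 4.61, 3.28 to 8.28), and with exercise without tumor 6.05-fold higher (log2 2.60, 1.02 to 6.28).

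Among receptors of the IL-17 family, whose ligands IL-17A and IL-17F recruit neutrophils, Il17ra had 345, 448, 529 and 1453. It passed 2-fold in the comparisons that hold E(+)T(+), at log2 1.46 (1.30 to 1.61) over E(-)T(+) and 1.70 (1.54 to 1.85) over E(+)T(-). With totals alone the former was 0.85, short of the limit. Its partner Il17rc had 97.7, 105, 140 and 141 and passed the limit in no comparison. Il17re, the epithelial receptor chain for IL-17C, had 29.9, 13.8, 0.054 and 16.4 (35, 15, 0 and 14 reads). E(-)T(+), without a read, was at least 9.05-fold lower than E(-)T(-) and E(+)T(+) at least 4.98-fold higher than E(-)T(+). Il17rd, a receptor-like chain, had 348, 246, 110 and 101, lower in both tumor libraries. The ligand Il17d had 39.9, 61.6, 12.1 and 40.9, and fell with tumor at rest (log2 -1.64, -2.82 to -0.76). Il3ra, the IL-3 receptor chain, had between 18.3 and 30.3 and passed the limit in no comparison.

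Il34, a ligand of the colony stimulating factor 1 receptor that supports macrophages, had 291, 244, 2635 and 394 normalized counts (343, 266, 2405 and 337 reads). Its level in E(-)T(+) was 9.01-fold above E(-)T(-) (log2 3.17, 3.01 to 3.34) and 6.67-fold above E(+)T(+) (the difference of E(+)T(+) over E(-)T(+) was log2 -2.74, -2.91 to -2.58), whereas in exercised mice the tumor difference was 0.69 (0.45 to 0.93), short of the limit. Its receptor Csf1r had 1114, 1301, 1367 and 1872. Antisense transcripts overlap exons of Il34, and whether strand was used in counting is not given in the sources used here. Il16, a chemoattractant of CD4+ cells, had 323, 297, 76.8 and 189, with exons that overlap those of Stard5.

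**Figure D5:**
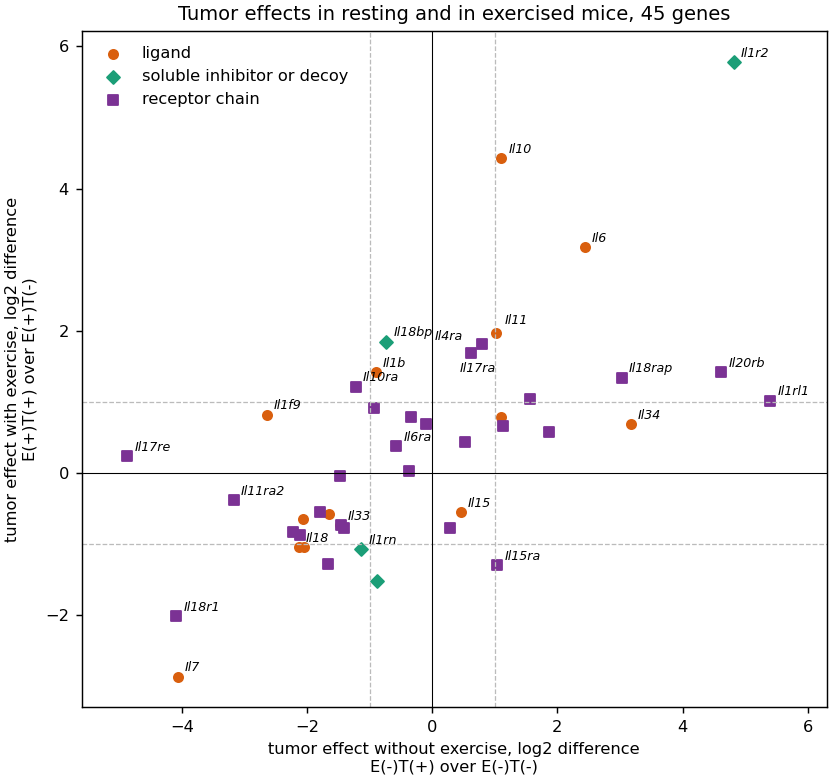
Log2 difference of E(-)T(+) over E(-)T(-) (horizontal) against E(+)T(+) over E(+)T(-) (vertical) for the 45 genes, marked as ligands, soluble inhibitors or decoys and receptor chains, with dashed lines at the 2-fold limit. Il1r2 is the highest point (5.78), Il1rl1 and Il34 lie far to the right with small vertical values, and Il1b, Il18bp and Il10ra are above 1 vertically and below 0 horizontally.

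The tumor comparisons at rest and in exercised mice hold no library in common, and neither do the exercise comparisons without and with tumor. Both tumor differences passed the limit on the same side for 14 genes, against 14.6% of rows, and on opposite sides for 2 (Il15ra and Il10ra), against 2.94%. Il6 and Il10 are among the 14 and in the filter only through E(+)T(+), which favors their rise with tumor in exercised mice. Both exercise differences passed the limit on the same side for 6 (Il1r2, Il1rn, Il1b, Il22ra2, Il6 and Il12a), against 3.07% of rows, all of them higher with exercise. Il6 and Il12a are in the filter only through E(+)T(+), which favors their rise with exercise in tumor-bearing mice, and the other 4 are left without them. The exercise differences passed the limit on opposite sides for 2 genes (Il1rl1 and Il17re), against 3.15%. With totals alone it was 3, since Il20rb was added. With totals alone Il1rn and Il22ra2, and with a pseudocount of 4 Il6 and Il22ra2, dropped out of the 6, leaving 4 either way. The 14 were 10 with a pseudocount of 4, 12 with totals without hemoglobin genes and 17 with totals alone, and under each of these 1 of Il15ra and Il10ra remained on opposite sides. With a pseudocount of 4 Il17re did not. Of the 6, Il22ra2, Il6 and Il12a rested on at most 24 reads in any library.

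Of 42 further genes of the interleukin pathways, namely shared receptor chains, related ligands, kinases, transcription factors, adaptors, feedback inhibitors and precursor-processing genes, 41 passed the filter. Higher and lower genes numbered 2 and 1 with exercise alone, 6 and 13 with tumor at rest, 13 and 3 with exercise in tumor-bearing mice, and 10 and 2 with tumor in exercised mice, against 9.98%, 46.2%, 42.0% and 27.8% of all rows past the limit on either side. Socs3, an inhibitor induced by IL-6 type signals, had 274, 550, 1507 and 3592, and Cish, induced by STAT5, had 584, 612, 295 and 1772. Casp1, which cleaves the IL-1 beta and IL-18 precursors, had 56.0, 87.2, 696 and 140, whereas its adaptor Pycard had 127, 114, 128 and 527. Csf2rb, the common beta chain that pairs with Il3ra, had 291, 281, 360 and 956. Stat4, the transcription factor of IL-12, had 36.6, 36.8, 5.55 and 28.1. In contrast Stat3 and Jak1 stayed within 2-fold in the 4 comparisons, with Stat3 at 5300, 4410, 4941 and 7967.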

How the data were processed

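Lung RNA was sequenced with a 3' kit (QuantSeq). Alignment (Bowtie2) and counting per gene (bedtools coverage) were done by the authors, whose normalization was edgeR's quantile adjustment. The submitters' notes name the build mm10. Versions, annotation and strand are not given in the sources used here. The deposited log2 values, 1 file per library, were found to equal log2(normalized count + 1). Whole reads were recovered by inverting the quantile adjustment (fitted dispersion 0.372, refitted on 1500 genes), and the recovered reads returned 100% of the values within 0.001. Depth was 13017450 reads in the normal control, 12780397 in the normal exercise, 9354541 in the cancer control and 13367987 in the cancer exercise library, with scaling factors of 1.09, 1.02, 1.17 and 0.769. The recovery and the fold calls were tested on simulated data.

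Fold changes are differences of the deposited log2 values, with a pseudocount of 1, and understate changes of low genes. Each group holds 1 library, no test of a condition was run and no p-value is given. Intervals (95%) and the floor of 3 reads cover counting error only. The intervals treat each read as independent. Reads without molecular identifiers may be copies of 1 molecule, so the intervals may be too narrow even for counting error. A fold against a library without a read is the lower of those from scaled reads and from normalized counts over the floor. The 2-fold limit and the normalized count of 4 followed the study, which does not say how the count was applied over libraries. Here it was the mean of the 4. Genes were named where they were ligands, receptor chains of these, Il15 receptor chains, past the limit in both exercise comparisons, or among the 6 largest differences of a comparison at a mean count of 20 or more. Any further gene was named after its values were seen. Alternatives were a pseudocount of 4, filters at a mean of 20 and of 0, scaling by totals, by totals without hemoglobin genes and by median-of-ratios factors, and removal of a share of E(-)T(+) from E(+)T(-). Members and gene lists were chosen with earlier results of these data known. Coordinates and promoters are from RefSeq (GRCm38.p6), strands and exon overlaps from GENCODE vM21, and 0 columns belonged to other samples. Of the 45 genes, 12 share exon sequence with another gene. Python 3.11.15, numpy 2.4.6, pandas 2.3.3, scipy 1.17.1 and matplotlib 3.10.9 were used.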

Additional observations from a re-analysis of the deposited data

Results flagged for a closer look

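Exercise moved Il1rl1 and Il17re to opposite sides in tumor-free and tumor-bearing mice. The log2 difference of Il1rl1 was 1.49 without tumor and -2.89 with tumor. The former was lower after removal of the median share of E(-)T(+) from E(+)T(-), and larger shares were not tried. For Il17re it was -1.07 and 4.04, the latter against a library without a read, and the former was -0.93, short of 2-fold, with a pseudocount of 4.

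Tumor moved Il15ra and Il10ra to opposite sides at rest and with exercise. Il15ra differed by log2 1.04 at rest and by -1.29 with exercise, and the former was short of 2-fold with a pseudocount of 4 (0.99) and with totals without hemoglobin genes (0.95). Il10ra differed by -1.22 and 1.22, and the latter was 0.81 with totals alone. Each of these 4 contrasts between settings rests on single libraries, and the difference between settings was not tested.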

How the results depend on the processing

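No library could be left out, since each group holds 1, and no interval covers the spread between mice. No paired analysis was possible because each group holds 1 library. At a mean count of at least 20, 5 of 34 genes had passed the limit with exercise alone, all higher, against 4.88% of rows. The other counts of genes past the limit on either side were within 1.5 times of the reported ones in the alternatives below that kept the filter, and no gene past the limit changed sign. Counts by direction, by family and over pairs of comparisons moved further under some alternatives, as given with those counts or with the genes concerned. Without Il6, Il10 and Il12a, an alternative chosen after seeing the data, the genes past the limit numbered 6 higher and 3 lower, 10 and 19, 21 and 6, and 11 and 8 of 42. Without a filter 14, 41, 42 and 31 of 83 rows were past it, against 11.2%, 37.9%, 35.5% and 24.3% of all rows. A pseudocount of 4 left 8, 27, 28 and 19 genes in the comparisons exercise without tumor, tumor without exercise, exercise with tumor and tumor with exercise (6.66%, 43.2%, 38.7% and 24.6% of all rows), and totals without hemoglobin genes left 11, 32, 29 and 19 (9.98%, 46.2%, 42.8% and 28.7%). Totals alone left 11, 32, 21 and 24 (10.1%, 46.7%, 51.8% and 33.7%), taking Il18, Il33, Il1rn, Il4ra, Il17ra, Il16, Il6st, Il6ra, Il7r, Il13ra1 and Il22ra2 under the limit in exercise with tumor, and Il1rl1, Il18rap, Il1rap and Il10ra in tumor with exercise. It brought Il20rb and Il2rg past the limit in the former and Il7r, Il10rb, Il33, Il11ra1, Il16, Il21r and Il2rg in the latter. That scaling put the median of all rows at -0.59 in exercise with tumor and at -0.41 in tumor with exercise. Over 38 named genes, 714 of 760 alternative values moved by no more than the counting interval reaches from its middle, or had an interval without a bound, 46 moved further (42 of them under totals alone) and 0 reversed.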

Other observations

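Some interleukin and receptor genes under the filter had most of their few reads in part of the libraries. Il27ra, a receptor chain of IL-27, was read 9 times in the resting and 4 times in the exercised tumor-free library, and 0 times in both tumor libraries. Il12b, the shared subunit of IL-12 and IL-23, had 9 reads at rest and 2 with exercise without tumor, against 0 and 1 with tumor. Il31ra, a receptor chain of IL-31, had 5 reads in the cancer exercise library and 0 in the others. With the floor of 3 reads in its place, E(-)T(+) was at least 2.33-fold below E(-)T(-) for Il27ra and for Il12b, and these genes enter the counts without a filter only.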
